A study of Mus musculus with 3 samples.

Results

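The chromatin at 5 genes that direct the first lineage decisions of the embryo, T, Eomes, Foxa2, Sox17 and Cdx2, was examined in mouse primordial germ cells, which later give rise to the gametes. Each gene was represented by a window of 30 or 40 kb on mouse genome build mm9, and its members were all called regions of 2 histone marks that shared at least 1 bp with that window. The windows were chr17 from 8.61 to 8.65 Mb for T, chr9 from 118.37 to 118.41 Mb for Eomes, chr2 from 147.85 to 147.89 Mb for Foxa2, chr1 from 4.47 to 4.50 Mb for Sox17 and chr5 from 148.10 to 148.13 Mb for Cdx2. They held 23 of 47928 H3K4me3 regions and 15 of 18731 H3K27me3 regions. The cells came from E11.5 embryos of a transgenic Oct4:GFP B6 line crossed to Swiss-Webster females, and were sorted as GFP-positive cells from the pooled gonadal regions of multiple embryos. Both marks and an input control, not analysed here, were made from the same aliquots of 104000 and 97000 cells. The marks share the genotype, reporter and stage, and no other cell type or stage was analysed here, so no comparison between conditions was made. Each mark has 1 list of regions that stands for 2 replicates, so no value has an error between replicates, no test was made, and the depth behind a region is unknown. The sort relies on the Oct4 reporter alone, and other cells passing the gate were not examined.

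Trimethylation of histone H3 at lysine 4 (H3K4me3) is typical of active and CpG-rich promoters, while trimethylation at lysine 27 (H3K27me3) is deposited by Polycomb complexes and is typical of silent developmental genes. Sequence that carries both is called bivalent and was first described at lineage regulators in embryonic stem cells. T (Brachyury) and Eomes are related T-box transcription factors that act in the primitive streak, T in mesoderm and notochord and Eomes in definitive endoderm, mesoderm and trophoblast. Foxa2, a forkhead factor, acts in endoderm, notochord and floor plate. Sox17, an HMG-box factor, acts in definitive endoderm. Cdx2, a caudal-type homeobox factor, acts in trophectoderm, the posterior body axis and the intestine.

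Every window held a wide H3K27me3 region with H3K4me3 inside it. The widest H3K27me3 region of a window, called its domain here, measured 24.6 kb at Foxa2, 18.2 kb at Cdx2, 16.2 kb at Eomes, 9.8 kb at T and 8.8 kb at Sox17. These domains overlapped 5, 3, 8, 2 and 2 H3K4me3 regions, called islands here, in the same order. Regions over 6 kb were classed as wide. By that scheme Eomes, Foxa2 and Cdx2 had wide domains with 3 or more islands, and T and Sox17 had wide domains with 1 to 2 islands. All 5 windows thus touched a wide H3K27me3 region with at least 2 islands. At T this rests on an island that entered the domain for 200 bp, and with an overlap of 400 bp T had 1 island. Of all bins of 40 kb along the genome, 3.82% touched a wide H3K27me3 region, 1.62% touched one with at least 2 islands, and 8.91% held any sequence under both marks. These bins include sequence without genes, whereas the windows were placed on genes chosen with earlier results of these data known. The marks were precipitated separately from pooled cells, so sequence shared by the lists need not carry both marks on 1 chromosome copy or within 1 cell.

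**Figure D1:**
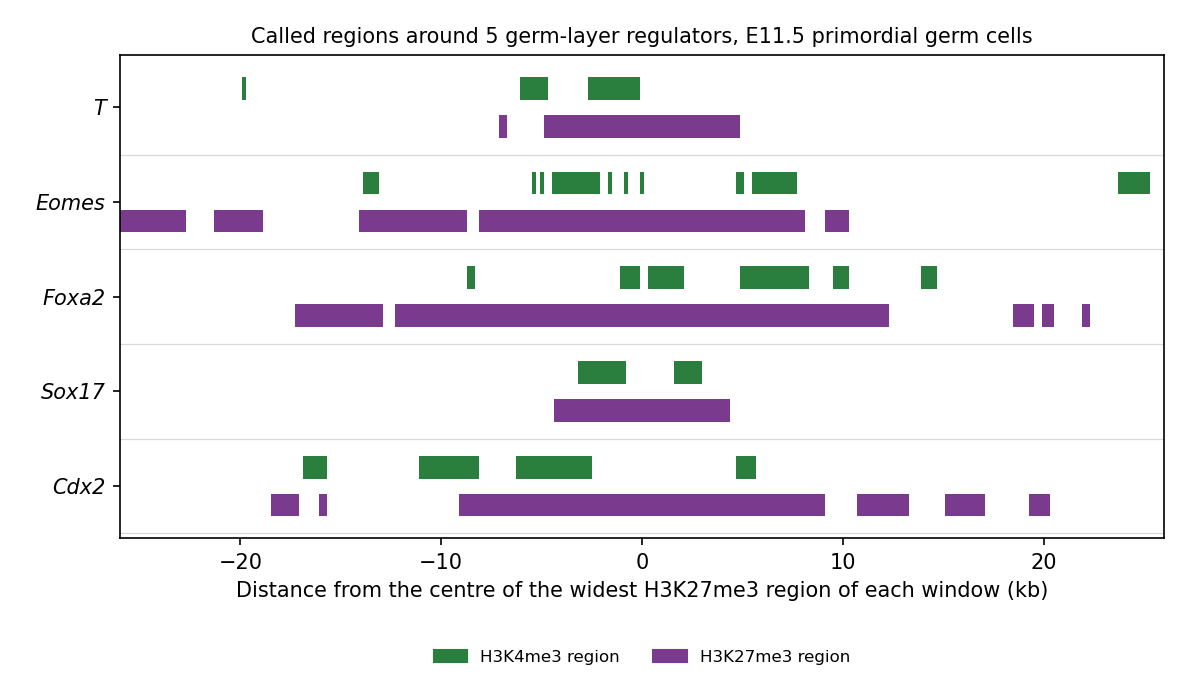
Called regions of H3K4me3 (green, upper bar of each pair) and H3K27me3 (purple, lower bar) at the 5 genes, drawn to scale against distance in kb from the centre of each domain. The domains run from 8.8 kb at Sox17 to 24.6 kb at Foxa2, each overlaps 2 to 8 H3K4me3 islands, and the islands at the lower edge of the T and Cdx2 domains reach beyond H3K27me3.

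Promoter sequences are shown because CpG-rich promoters are where both marks typically lie. They are RefSeq sequences of build GRCm38.p6, from 250 bases before to 50 after an annotated start, and they could not be placed on the mm9 regions, so whether an island covers them was not examined. The table matched 4 of the 5 genes, and Sox17 was not matched. Each is written 5′ to 3′ on the gene's strand, with every CG dinucleotide in capitals. They lie at chr17:8434173-8434472 (plus strand) for T, chr9:118477939-118478238 (plus) for Eomes, chr2:148046920-148047219 (minus) for Foxa2 and chr5:147307200-147307499 (minus) for Cdx2. Foxa2 has 3 annotated starts, and the first listed is printed.
T: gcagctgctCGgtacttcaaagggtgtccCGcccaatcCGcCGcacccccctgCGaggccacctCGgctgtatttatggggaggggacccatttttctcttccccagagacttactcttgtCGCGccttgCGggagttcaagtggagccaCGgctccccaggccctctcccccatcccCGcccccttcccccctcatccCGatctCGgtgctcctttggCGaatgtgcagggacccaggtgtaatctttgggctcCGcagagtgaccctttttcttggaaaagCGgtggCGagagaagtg
Eomes: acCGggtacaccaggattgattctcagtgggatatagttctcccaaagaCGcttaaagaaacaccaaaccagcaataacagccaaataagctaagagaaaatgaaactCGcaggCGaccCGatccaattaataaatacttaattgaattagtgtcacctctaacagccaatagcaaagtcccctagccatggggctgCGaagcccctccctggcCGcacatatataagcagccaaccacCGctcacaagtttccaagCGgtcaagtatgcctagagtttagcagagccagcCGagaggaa
Foxa2: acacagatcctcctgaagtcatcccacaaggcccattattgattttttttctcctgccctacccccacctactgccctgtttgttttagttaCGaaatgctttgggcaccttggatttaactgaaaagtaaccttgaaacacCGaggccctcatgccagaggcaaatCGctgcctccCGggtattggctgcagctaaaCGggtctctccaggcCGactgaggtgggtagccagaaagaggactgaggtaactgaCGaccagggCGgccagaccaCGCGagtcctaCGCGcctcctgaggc
Cdx2: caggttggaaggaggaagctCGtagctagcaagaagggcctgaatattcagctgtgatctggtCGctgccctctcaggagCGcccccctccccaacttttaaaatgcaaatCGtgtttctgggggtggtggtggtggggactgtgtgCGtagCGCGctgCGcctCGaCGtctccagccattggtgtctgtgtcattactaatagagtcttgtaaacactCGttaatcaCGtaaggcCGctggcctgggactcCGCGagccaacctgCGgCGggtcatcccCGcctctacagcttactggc

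All 4 printed promoters held more CG dinucleotides than the median promoter, and none reached the upper quartile. Cdx2 had 18, T 17, Foxa2 12 and Eomes 10, against a median of 7 (quartiles 3 and 20) over 32851 promoters. In the same order, 70.3%, 68.6%, 60.4% and 56.5% of all promoters had fewer. The other 2 Foxa2 starts had 23, above the upper quartile, and 13. With the 250 upstream bases alone, the Foxa2 start shown had 6, the same as the median of all promoters. The Foxa2 starts not printed had 20 and 13 there, and 82.1% and 68.5% of all promoters had fewer. G and C made up 61.7% of the T promoter, 57.3% of Cdx2, 54.3% of Foxa2 and 47.3% of Eomes. In that order, 74.6%, 63.5%, 54.5% and 29.7% of all promoters had a lower share, so Eomes lay below the median. At the Foxa2 starts not printed the share was 64% and 51.7%, and 79.7% and 45.4% of all promoters had a lower one. The letters GGGCGG, which contain a CG, were found on either strand at T and at the Foxa2 start shown, but not at Eomes or Cdx2, and occur in 35.7% of all promoters. TATAAA, found in 13.6% of all promoters, was in none of the 4. Of the Foxa2 starts not printed, both held GGGCGG and the last listed held TATAAA. AGGTGTGA, the core letters bound by T-box factors and present in 1.28% of all promoters, was in none of the 4 and at neither of the other Foxa2 starts.

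The T window held the simplest pattern of the T-box pair. Its domain, chr17:8623401-8633200 (mm9), measured 9.8 kb, a width that 6.55% of all H3K27me3 regions reached. An H3K4me3 island of 2.6 kb (chr17:8625601-8628200) lay wholly inside it, from 2.2 kb past its lower edge (the end with the lower coordinate), and left 5 kb of the domain after it without H3K4me3. The other island of 1.4 kb (chr17:8622201-8623600) lay mostly outside and entered the domain for 200 bp, which is 1 step of the 200-bp grid of the lists. With an overlap of at least 400 bp required, T therefore had 1 island. Islands covered 2.8 kb, or 28.6%, of the domain. A further H3K27me3 region of 400 bp (chr17:8621201-8621600) was 600 bp from the nearest H3K4me3 and overlapped none.

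Eomes, the second T-box gene, carried the most islands in the lists as deposited, though not where narrow islands were left out or H3K4me3 neighbours merged. Its domain, chr9:118383201-118399400, measured 16.2 kb, a width that 2.82% of H3K27me3 regions reached, and held 8 islands covering 6 kb (37%). An island of 2.4 kb (chr9:118386801-118389200) and an island of 2.2 kb (chr9:118396801-118399000) made up most of that length. They stood toward opposite ends of the domain, with centres at 29.6% and 90.7% of its width. Of the other 6 islands, 5 were single steps of 200 bp and 1 was 400 bp. The 5 smallest lay around the 2.4-kb island, 2 before it and 3 after it, at gaps of 200 to 600 bp. Regions were taken as like in width when the narrower of a pair was at least 0.8 times the wider, and each such set includes the domain itself. Among the 468 H3K27me3 regions of like width, the median was 1 island and 2 regions (0.427%) held at least 8. The count rested on narrow, closely spaced islands. It was 3 with an overlap of 400 bp and 2 among regions wider than 400 bp. Merging H3K4me3 neighbours within 1 kb, a setting chosen after the data were seen, also left 2 islands. At 2 islands Eomes falls in the class of T and Sox17. With both marks merged the count was 3, because the widened domain then took in a separate H3K4me3 region below it. Foxa2 had more islands than Eomes under each of these settings, with 5, 4, 4 and 4 in the order given. All 8 Eomes islands lay wholly inside the domain, so requiring an overlap of 50% of the shorter region removed none.

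Further H3K27me3 lay beside the Eomes domain. A region of 5.4 kb (chr9:118377201-118382600) lay 600 bp below the domain and enclosed an H3K4me3 region of 800 bp (chr9:118377401-118378200). Regions of 2.4 kb (chr9:118370001-118372400) and 1.2 kb (chr9:118400401-118401600) overlapped no H3K4me3. Joined over gaps under 1 kb, the Eomes domain widened to 22.2 kb, while the T domain kept its 9.8 kb.

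Foxa2, an endoderm and notochord regulator, had the widest domain. At 24.6 kb (chr2:147852601-147877200), its width was reached by 208 of all H3K27me3 regions (1.11%). It held 5 islands, all wholly inside, of 400, 1000, 1800, 3400 and 800 bp from the lower to the upper edge. The widest, chr2:147869801-147873200, had its centre at 76.8% of the domain width. The lower part of the domain carried little H3K4me3: after the island of 400 bp, 7.2 kb were free of it. Islands covered 7.4 kb (30.1%). The window was the only one of the 5 with an H3K4me3 region free of H3K27me3, 800 bp wide and 1.6 kb above the domain (chr2:147878801-147879600). It also held 4 further H3K27me3 regions of 400 bp to 4.4 kb, none with H3K4me3. The 4.4-kb region (chr2:147847601-147852000) lay 600 bp below the domain and began outside the window. Joined with it, the domain measured 29.6 kb.

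Sox17, the definitive endoderm regulator, had the narrowest domain and no other called H3K27me3 in its window. The domain, chr1:4480401-4489200, measured 8.8 kb, a width that 7.83% of H3K27me3 regions reached. It enclosed islands of 2.4 kb (chr1:4481601-4484000) and 1.4 kb (chr1:4486401-4487800), 2.4 kb apart, with centres at 27.3% and 76.1% of its width. Islands covered 3.8 kb, or 43.2%, the highest share of the 5 domains. Of the 1003 H3K27me3 regions of like width, 50 (4.99%) had at least as much of their length under H3K4me3, and the median was 7.69%. Its longest stretch without H3K4me3, 2.4 kb, was the shortest of the 5. No setting tried changed its width or its number of islands.

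Cdx2, the trophectoderm and posterior regulator, had the widest island. Its domain, chr5:148112801-148131000, measured 18.2 kb, a width that 2.24% of H3K27me3 regions reached, and ran past the upper end of the window. An island of 3.8 kb (chr5:148115601-148119400) lay wholly inside. It was the longest stretch under both marks among the 5 genes, and 87 of all 9132 such stretches (0.953%) were at least as long. An island of 3 kb (chr5:148110801-148113800) crossed the lower edge, with 1000 bp inside the domain and 2 kb outside. After the 3.8-kb island came 7.2 kb free of H3K4me3 and then an island of 1000 bp (chr5:148126601-148127600). The count was 2 when an overlap of 50% of the shorter region was required, which moves Cdx2 to the class with 1 to 2 islands. Islands covered 5.8 kb (31.9%). Below the domain, an H3K27me3 region of 400 bp lay inside an H3K4me3 region of 1.2 kb (chr5:148105001-148106200), and a region of 1.4 kb overlapped no H3K4me3.

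The 5 genes shared an island of at least 2 kb inside a wide domain. The widest island measured 3.8 kb at Cdx2, 3.4 kb at Foxa2, 2.6 kb at T and 2.4 kb at Eomes and Sox17, and each of these lay wholly inside H3K27me3. Of all wide H3K27me3 regions, 17.5% overlapped an H3K4me3 region of 2.4 kb or more, and among those with at least 2 islands the share was 33.4%. Over the 20 islands the median width was 1200 bp, against 1000 bp for all H3K4me3 regions that overlapped H3K27me3. Of the 20, 18 lay wholly inside a domain and 2, at T and Cdx2, crossed its lower edge.

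**Figure D2:**
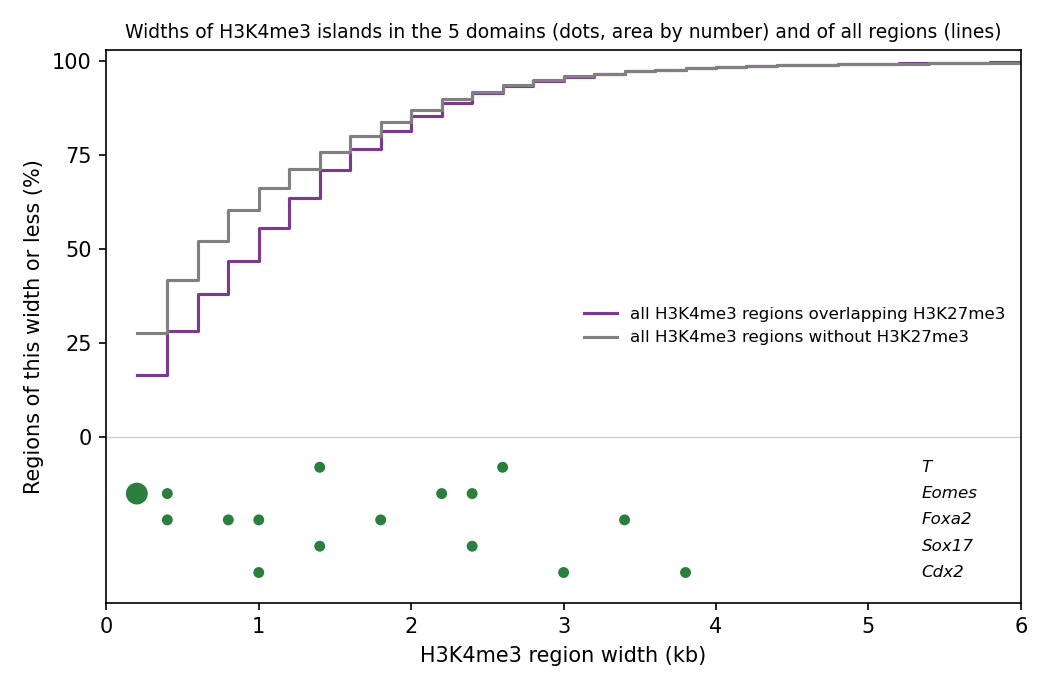
Widths in kb of the 20 H3K4me3 islands, 1 row of dots per gene (dot area by number), below the cumulative percentage of all H3K4me3 regions by width, with (purple) and without (grey) H3K27me3 overlap. Each gene has an island of 2.4 kb or more, and the large dot stands for the 5 islands of 200 bp at Eomes.

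H3K4me3 filled a larger part of these domains than of H3K27me3 regions in general. Islands covered 28.6% of the T domain, 30.1% of Foxa2, 31.9% of Cdx2, 37% of Eomes and 43.2% of Sox17. Over all H3K27me3 sequence the share was 13.8%. Among regions of like width the median share was 7.69% to 11.9%, and 4.99% (Sox17) to 14.4% (T) of such regions had at least as much. At the genes other than Eomes, the number of islands stood apart less than the covered share. At least as many islands were found in 34.6% of the 384 regions as wide as Cdx2, 24% of the 847 as wide as T, 20.5% of those as wide as Sox17 and 18.7% of the 219 as wide as Foxa2. At Eomes the order was the opposite, with at least as many islands in 0.427% of regions of like width and at least as much H3K4me3 in 6.2%. That rank uses the count of 8, which fell to 2 or 3 where narrow islands were left out or H3K4me3 neighbours merged. The rank of T uses a count of 2, which was 1 with an overlap of 400 bp. The share of regions of like width was not computed under those settings. Of all wide H3K27me3 regions, 32.3% held at least 2 islands and 16.0% at least 3. The genes were chosen with earlier results of these data known, so the shares are a description.

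**Figure D3:**
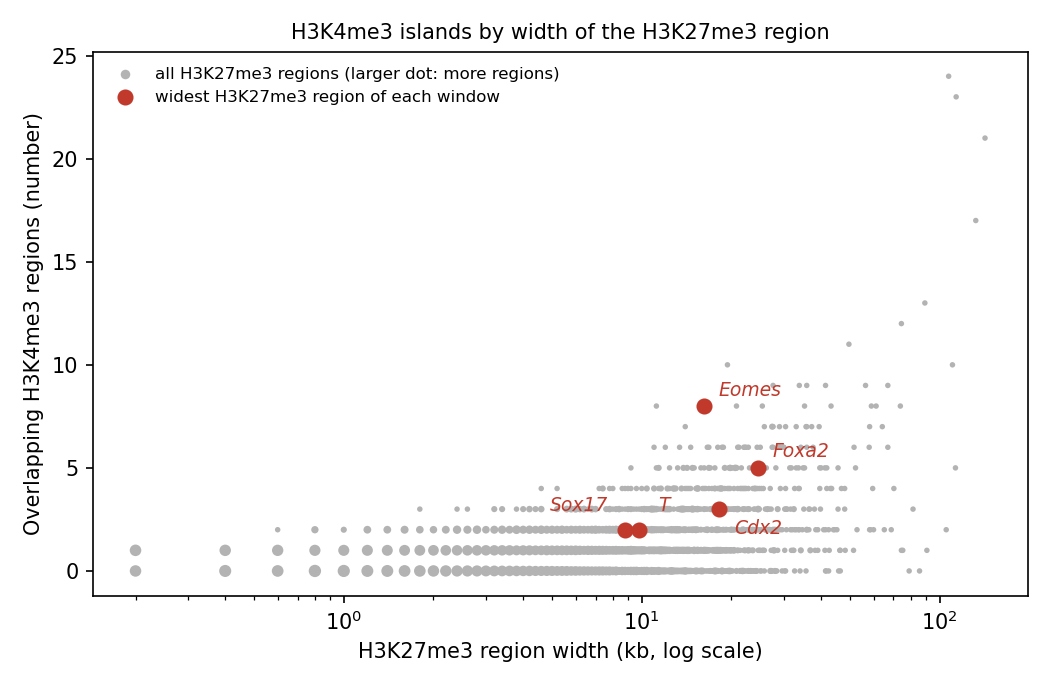
Number of overlapping H3K4me3 regions against width in kb (log axis) for all 18731 H3K27me3 regions (grey, larger dots for more regions) and the 5 domains (red). Eomes, with 8 islands at 16.2 kb, sits near the upper edge of the cloud, while T, Sox17 and Cdx2 sit among many regions of like width and number.

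Taking all members and not the domains alone, 22 of the 23 H3K4me3 regions overlapped H3K27me3, where 18.8% of all H3K4me3 regions did. Of the 23, 20 were the islands already described, which overlap a domain by definition, so this count largely restates the domain result. Of the 15 H3K27me3 regions, 7 overlapped H3K4me3, where 37.5% of all did, so the H3K27me3 members as a whole stood near the background. Regions of a window lie side by side and are not independent. The 8 H3K27me3 regions without H3K4me3 measured 400 bp to 4.4 kb. Sequence under both marks totalled 7.4 kb in the Foxa2 window, 6.8 kb at Eomes, 6.2 kb at Cdx2, 3.8 kb at Sox17 and 2.8 kb at T. It made up 100% of the H3K4me3 length at Eomes and Sox17, 90.2% at Foxa2, 70% at T and 68.9% at Cdx2.

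The surroundings of the domains differed widely. Within 100 kb on either side, the Sox17 domain had no other H3K27me3 region, and the nearest were 189 kb above and 958 kb below. Of all 2450 wide H3K27me3 regions, 105 (4.29%) had none within that distance, and the median was 9. T had 3 further regions within 100 kb, Foxa2 5 and Eomes 10. Cdx2 had 23, a number that 5.27% of wide regions reached. H3K27me3 covered 37.9% of the 100-kb flanks of Cdx2, a share that 21.8% of wide regions reached. It covered 20.4% of the flanks of Eomes, 4.7% at T, 4.4% at Foxa2 and 0% at Sox17, with a median of 17% over wide regions. Of all wide regions, 29.3% had as few regions within 100 kb as Foxa2, whose domain was the widest, and 19.8% as few as T. Foxa2 and Sox17 had no other wide region within 500 kb, a share not computed over all wide regions.

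**Figure D4:**
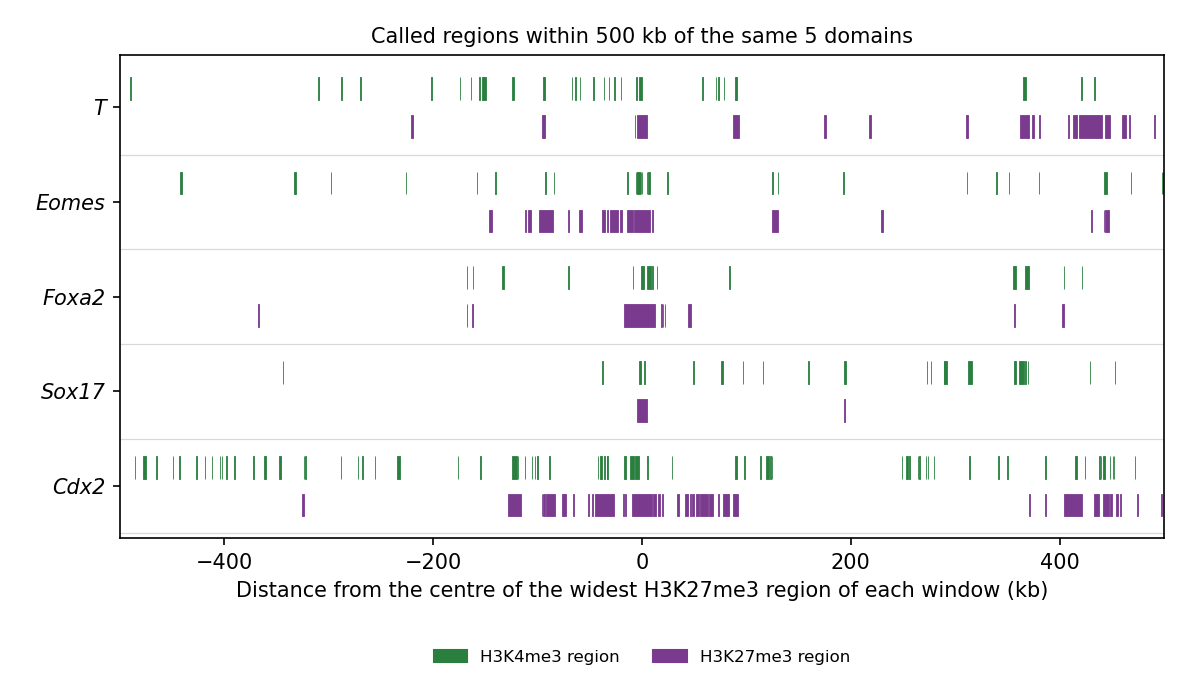
The same marks within 500 kb of each domain centre (H3K4me3 green, H3K27me3 purple), with distance in kb. The Sox17 domain stands alone, with 1 other H3K27me3 region of 200 bp in view, while 23 further H3K27me3 regions crowd the 100 kb on either side of Cdx2.

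The windows cut through that crowding at Cdx2 and Eomes. Just outside the Cdx2 window, 4.6 kb below it, lay a wide H3K27me3 region of 18.8 kb with 6 islands (chr5:148076601-148095400), slightly wider than the domain itself. Just above lay a region of 2.6 kb (chr5:148132601-148135200), 1.6 kb from the domain. In gene order, Cdx2 lies between Pdx1, a homeobox gene of pancreas development, and Urad, but no region was assigned to either. At Eomes, a region of 8 kb without H3K4me3 (chr9:118360601-118368600) lay 1.4 kb below the window. The nearest H3K27me3 outside the windows of T and Foxa2 was 65.4 kb and 19.2 kb away. With windows extended by 20 kb on each side, the sequence under both marks was 10.2 in place of 6.2 kb at Cdx2 and kept its value at the other 4 genes.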

How the data were processed

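The ChIP-seq measurements of H3K4me3 and H3K27me3 are deposited as 1 list of regions per mark. Per the labels' protocols, cells were fixed in 0.25% formaldehyde for 10 min, 2.4 µg of antibody was used per precipitation, and precipitated libraries were amplified for 20 cycles. The submitters' processing notes name Bowtie 0.12.7 and the mm9 build. The lists are named by the authors as contiguous ChromHMM regions and hold deposited positions in bp on a 200-bp grid, with no count or score. Not given in the sources used here are the ChromHMM settings, whether the input was used, and how the 2 replicates were combined. It is also not stated whether ChromHMM was run on both marks jointly, so the 2 lists may not be independent calls.

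Every region sharing at least 1 bp with a window was taken. The widest H3K27me3 region of each window was its domain, and the genes named are the 5 members. Widths were compared with all regions of the list, and islands with all H3K27me3 regions of like width (ratio of the narrower to the wider at least 0.8). Bins of 40 kb ran to the last region of each chromosome, without the mitochondrial genome. The members, windows and classes were chosen with earlier results of these data known. Coordinates count from 1. No mm9 gene annotation was used here, so no region was assigned to a start site and other germ-layer genes were not analysed here. The overlap code was tested on simulated data and recovered the islands of 600 of 600 regions. The simulated islands lay wholly inside their regions, so islands crossing an edge, as at T and Cdx2, were not tested. Alternatives were other overlaps, joined regions, regions wider than 400 bp, wider windows, other chromosomes and other bins. Python 3.11.15, numpy 2.4.6 and pandas 2.3.3 were used.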

Additional observations from a re-analysis of the deposited data

How the results depend on the processing

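Alternatives gave 62 values for 29 results, of which 55 stayed within 1.5 times the reported value and 7 did not. With windows extended by 20 kb on each side, the H3K27me3 regions numbered 23 in place of 15, and the sequence under both marks at Cdx2 was 10.2 kb in place of 6.2 kb. With an overlap of 400 bp, T had 1 island in place of 2 and Eomes 3 in place of 8. Eomes also had 3 islands with regions of each mark joined, 2 among regions wider than 400 bp, and 2 with H3K4me3 regions alone joined, a setting chosen after seeing the data. Foxa2, with 4 or 5 islands, then had more than Eomes. These follow from the construction of the alternatives, which take in more sequence or leave out or merge narrow islands. Of the genes with 3 or more islands, 2 of 3 remained in that class when 50% of the shorter region had to overlap (without Cdx2) and among regions wider than 400 bp (without Eomes). No paired analysis was possible because each mark has 1 list, and for the same reason no replicate could be left out. Without read counts, the depth that limits which narrow islands were called is unknown.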
